A study of Mus musculus with 23 samples.

Results

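The 9 genes described here encode the subunits of the AMPA receptors (Gria1 to Gria4, 4 genes) and of the kainate receptors (Grik1 to Grik5, 5 genes). They were found by Ensembl identifier among 56941 genes in the count tables, and all 9 passed the filter on low counts. Both families are ionotropic glutamate receptors that assemble as tetramers. AMPA receptors carry most of the fast excitatory current at central synapses, and the subunits in the tetramer set its calcium permeability, kinetics and trafficking. Kainate receptors act on both sides of the synapse, and the proteins of Grik4 and Grik5 need a partner from Grik1 to Grik3 to form a functional channel.

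RNA was measured in primary hippocampal neurons cultured from newborn Nedd8cKO mice, in which loxP sites flank exons 2 and 3 of Nedd8, the gene of the ubiquitin-like modifier NEDD8. All neurons carried the floxed alleles in homozygous form and all were infected with a lentivirus, under a Synapsin1 promoter, on the first day in culture. The virus expressed RFP in the control group and CRE recombinase with RFP in the group that loses Nedd8. RNA was taken after 12 days by the labels and a day later by the study's methods. An uninfected group is not analysed here, and no group controls for CRE without a floxed gene. The series holds 12 CRE and 11 RFP libraries, named here by the culture number and the library number in the labels (CRE1-1 is the first library of CRE culture 1). The labels do not state that libraries come from separate cultures or animals. The study's legend for these RNA data counts fewer biological replicates than libraries, so the libraries of a group are not all independent. Each group holds 3 culture numbers, read here as cultures. Unless a culture is named as the unit, p-values take each library as a unit. They measure the spread between these libraries, which may be technical, and overstate the independent replication.

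The 2 libraries that the study's methods name as removed, CRE1-3 and CRE3-3, were left out, which leaves 10 CRE and 11 RFP libraries with totals from 7635735 to 17112815 counts. CRE1-3 and CRE3-3 stood apart in the files: 0.261% and 1.833% of their counts were mitochondrial, against 6.997 to 11.095% in 20 of the 21 others. The library RFP2-4, which was kept, lay at 3.435%. In these 3 libraries genes of high GC content were over-represented, with a Spearman correlation across genes between GC content and the library's log2 deviation of 0.749 in CRE1-3, 0.584 in CRE3-3 and 0.505 in RFP2-4, against at most 0.212 elsewhere. In RFP3-2, also kept, the ribosomal gene Rn18s-rs5 took up 24.16% of all counts. CRE3-2, kept as well, had the lowest total of the CRE libraries compared (8923280 counts) and the most genes with a count of any library (23738). Its GC correlation of 0.212 was the only one above 0 among the CRE libraries compared. Values with CRE1-3 and CRE3-3 are given beside the members' results that they move.

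Nedd8 itself checked the labels. Levels are given as CPM, the count of a gene relative to the scaled size of its library. Nedd8 lay at 5.92, 11.7 and 18.0 CPM (lowest, median and highest) in CRE libraries and at 44.1, 61.4 and 76.0 CPM in RFP libraries. The groups did not overlap, and Nedd8 fell by 2.41 on the log2 scale (SE 0.16, adjusted p = 1.79e-12, edgeR's quasi-likelihood test).

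The subunits share the stretch of coding sequence that is shown here because it holds the Q/R site, a codon of the pore loop. In Gria2 RNA this glutamine codon is edited to arginine, which makes AMPA receptors with that subunit nearly impermeable to calcium. In Grik1 and Grik2 RNA the matching codon is also an editing site. Each run is 30 bases of coding strand from GRCm39 with GENCODE M39, and the capitals mark the codon in the Q/R column, as the genome encodes it:
Gria1: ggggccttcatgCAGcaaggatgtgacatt
Gria2: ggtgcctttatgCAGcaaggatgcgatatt
Gria3: ggtgcttttatgCAGcaaggatgtgatatt
Gria4: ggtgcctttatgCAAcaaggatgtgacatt
Grik2: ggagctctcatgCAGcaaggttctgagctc
Grik5: ggtggcttcatgCAGcagggctcggagatc

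In Gria1 the run is chr11:57133908-57133937 (plus strand), in Gria2 chr3:80614203-80614232 (minus), in Gria3 chrX:40699130-40699159 (plus) and in Gria4 chr9:4464122-4464151 (minus), each in exon 11 of the transcript used. The run of Grik2 crosses the junction of exons 13 and 14, between chr10:49116882 and chr10:49120439 (minus), and that of Grik5 lies in exon 15 at chr7:24721907-24721936 (minus). The capital codon is residue 607 of the Gria2 protein and residue 621 of the Grik2 protein in these transcripts. The codon encodes glutamine in all 9 genes, as CAA in Gria4 and as CAG in the other 8. Gria2 and Gria3 are identical at 28 of the 30 bases, and Gria2 and Grik2 at 20 of 30. Counts per gene measure neither editing at this codon nor the choice between flip and flop exons.

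At the level of the gene, 8 of the 9 subunits were called at an adjusted p under 0.05, of which 6 were lower and 2 higher in CRE libraries. Over all 14482 genes tested 37.9% were called, 20.2% as higher and 17.8% as lower. The lower members were Gria1, Gria2, Grik2, Grik3, Grik4 and Grik5, and the higher ones Gria3 and Gria4, so the AMPA family split by direction. With counts summed per culture number, the same 6 were called lower, and 1 member, Gria4, was called higher. In that fit 11.3% of 18275 genes were called higher and 11.7% lower. The median log2 fold change over the 9 members was -0.57, beside 0.02 over all genes tested. The groups did not overlap in CPM for 2 members, Gria1 and Grik5, and for 5.7% of 14350 genes. In bulk libraries fewer cells of a type and less RNA per cell cannot be told apart.

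**Figure D1:**
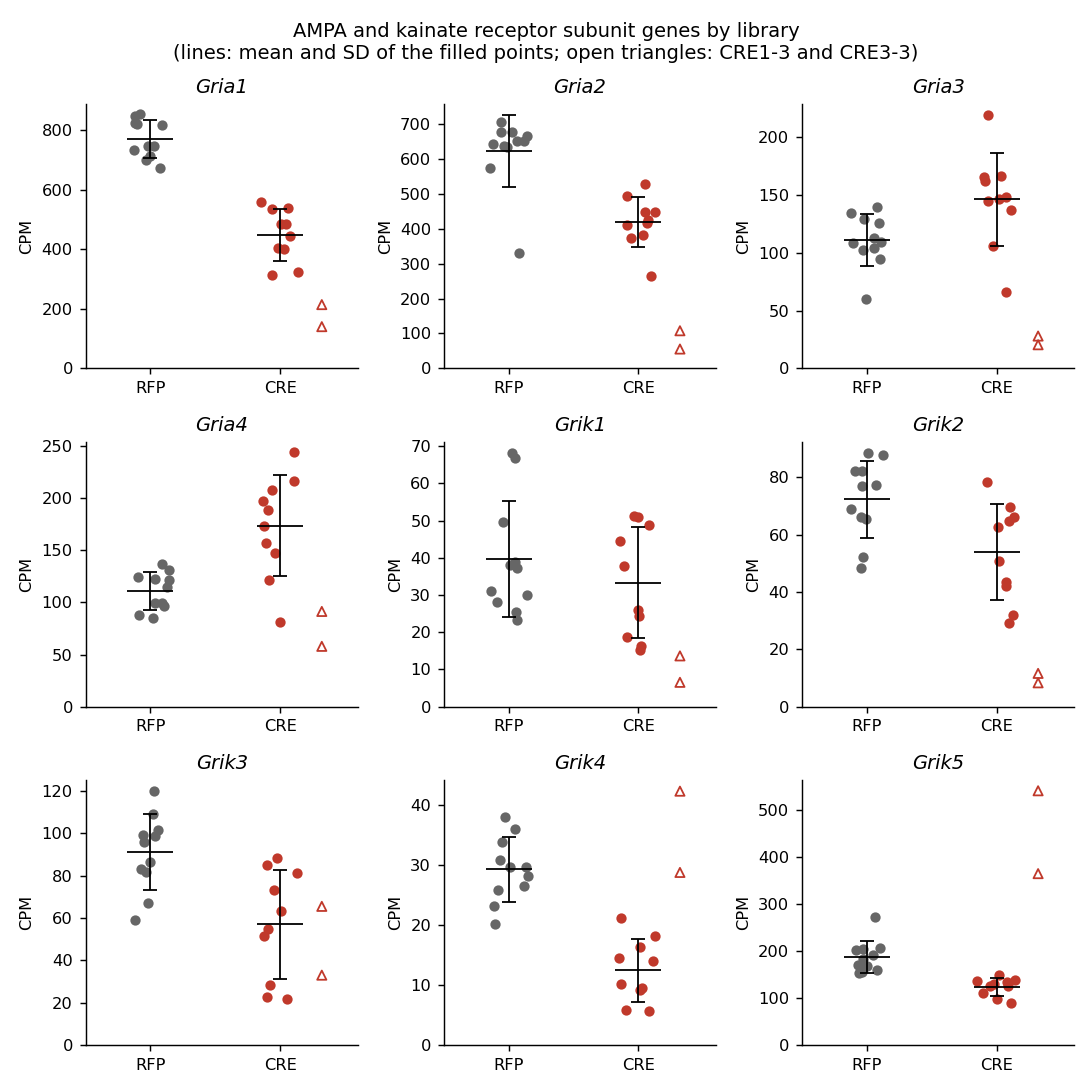
Normalised counts (CPM, y axis) of each subunit gene in every RFP and CRE library (x axis). Filled points are the 11 RFP and 10 CRE libraries compared, lines their mean and SD, and open triangles CRE1-3 and CRE3-3. All 10 CRE points lie below every RFP point for Gria1 and Grik5, while the 2 triangles lie above every RFP point for Grik5.

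Gria1, the long-tailed AMPA subunit central to activity-dependent insertion at hippocampal synapses, had the highest level of the 9 per length of exon. CRE libraries held 312, 464 and 559 CPM (lowest, median and highest) and RFP libraries 674, 746 and 853 CPM. Every CRE library lay below every RFP library. Gria1 fell by 0.78 on the log2 scale (SE 0.093, adjusted p = 1.1e-07), to 0.582 of the RFP level. It fell by 0.93 with all 23 libraries and by 0.91 in the 21 libraries of the study's count table, which hold CRE1-3 and RFP2-4 but not CRE3-3 and RFP3-2. Of all tested genes, 28.2% were called with all 23 libraries and 30.2% with those 21.

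Gria2, whose edited subunit blocks calcium entry, held 266, 420.4 and 528 CPM in CRE and 331, 650.3 and 707 CPM in RFP libraries. The groups overlapped through a single control, RFP2-4 at 331 CPM, and the other 10 RFP libraries lay above every CRE library. Gria2 fell by 0.57 on the log2 scale (SE 0.11, adjusted p = 0.000116). With all 23 libraries it fell by 0.78 (SE 0.24, adjusted p = 0.0148).

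Gria3, a short-tailed subunit that usually pairs with Gria2, moved the other way. CRE libraries held 65.9, 147 and 219 CPM and RFP libraries 60.2, 109 and 139 CPM. In CRE, 7 of 10 libraries lay above every RFP library, and CRE3-2 was the low one at 65.9 CPM. Gria3 rose by 0.39 on the log2 scale (SE 0.15, adjusted p = 0.0378). This call was the weakest of the 8: the change was 0.18 with all 23 libraries (adjusted p = 0.646) and 0.19 in the libraries of the study's count table (adjusted p = 0.570), and it was lost in 16 of the 24 fits that left out a culture or a library.

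Gria4, a subunit with fast kinetics that is abundant in many interneurons and early in development, held 81.5, 181 and 245 CPM in CRE and 84.8, 115 and 137 CPM in RFP libraries. In CRE, 8 of 10 libraries lay above every RFP library, and CRE3-2 lay below all of them at 81.5 CPM. Gria4 rose by 0.65 on the log2 scale (SE 0.14, adjusted p = 0.000485), 1.57 times the RFP level. It rose by 0.51 with all 23 libraries (adjusted p = 0.0403).

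Of the kainate subunits that form channels on their own, Grik1 was the one member not called. CRE libraries held 15.1, 31.8 and 51.2 CPM and RFP libraries 23.2, 37.3 and 68.1 CPM, with broad overlap. The log2 change was -0.25 (adjusted p = 0.468), with a 95% interval from -0.73 to 0.24, so a fall of the size seen for Gria2 lay within it. With all 23 libraries the change of Grik1 was -0.41, also without a call (adjusted p = 0.287).

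Grik2, a main kainate subunit of hippocampal principal cells, held 29.1, 56.7 and 78.5 CPM in CRE and 48.3, 76.9 and 88.3 CPM in RFP libraries. In CRE, 4 of 10 libraries lay below every RFP library. Grik2 fell by 0.42 on the log2 scale (SE 0.15, adjusted p = 0.0289). The call was lost with all 23 libraries (-0.62, adjusted p = 0.0639) and in 5 of the 24 fits that left out a culture or a library, with a change of -0.28 without culture 1 (adjusted p = 0.275). Grik3, a subunit of low glutamate affinity, held 21.7, 59.1 and 88.2 CPM in CRE and 58.8, 96.0 and 120.2 CPM in RFP libraries. The 3 lowest CRE libraries for Grik3, CRE2-2, CRE1-2 and CRE3-2, lay under 30 CPM. Each came from another culture number, but all 3 carry library number 2. They also had the highest Rn18s-rs5 shares of the CRE libraries compared (2.64, 2.889 and 4.062% of counts). Whether these libraries share a batch was not tested. Grik3 fell by 0.68 (SE 0.23, adjusted p = 0.0228) and by 0.71 with all 23 libraries (adjusted p = 0.0131). With library number as a replicate block Grik3 fell by 0.81 (SE 0.20, adjusted p = 0.00297). Its call was lost without culture 1 (adjusted p = 0.132) and without culture 2 (adjusted p = 0.15).

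Grik4 and Grik5 encode the high-affinity kainate subunits, and Grik4 RNA is known to be concentrated in CA3 and the dentate gyrus. Grik4 held 5.63, 12.1 and 21.2 CPM in CRE and 20.2, 29.6 and 38.1 CPM in RFP libraries. In CRE, 9 of 10 libraries lay below every RFP library, and CRE3-4 was the exception. Grik4 fell by 1.24 on the log2 scale (SE 0.19, adjusted p = 8.47e-06), to 0.425 of the RFP level. With all 23 libraries it fell by 0.89 (adjusted p = 0.00931). CRE1-3 held 28.7 CPM and CRE3-3 42.3 CPM, above every other CRE library. Grik4 is also the member with the fewest reads, 66 to 449 counts in the 21 libraries.

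Grik5 held 89.5, 127 and 149 CPM in CRE and 152, 182 and 272 CPM in RFP libraries. The groups did not overlap, although the highest CRE and lowest RFP library were close. Grik5 fell by 0.60 on the log2 scale (SE 0.10, adjusted p = 2.03e-05). The call rests on leaving out 2 libraries: CRE1-3 held 365 CPM and CRE3-3 541 CPM, above every RFP library. With all 23 libraries the change was -0.08 (adjusted p = 0.838), and in the libraries of the study's count table -0.41 (adjusted p = 0.0983).

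Members of low and high GC content in their longest transcripts differed in these libraries, though not all in the same way. In CRE1-3 and CRE3-3, Gria2 (37.587% GC) lay at 55.4 and 108 CPM and Grik2 (37.978% GC) at 8.31 and 11.6 CPM, below every other CRE library. Grik5 has the highest GC content of the members at 58.912%, and its level in both libraries lay above all 21 others. Gria4 has the lowest GC content at 36.976%, and it lay at 57.9 CPM in CRE1-3 but at 91.4 CPM in CRE3-3, above CRE3-2, and inside the range of the other RFP libraries in RFP2-4 (99.9 CPM). Grik3 (55.041% GC) lay at 33.0 and 65.5 CPM in CRE1-3 and CRE3-3, inside the range of the other CRE libraries. In the kept control RFP2-4, Gria2 was the lowest and Grik5 the highest of the RFP libraries. The part of GC content in these values was not tested beyond the fit that follows. With the trend against GC content removed from the fit, Gria1 fell by 0.83 and Grik5 by 0.50, and Gria3 at 0.34 was no longer called (adjusted p = 0.0683).

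**Figure D2:**
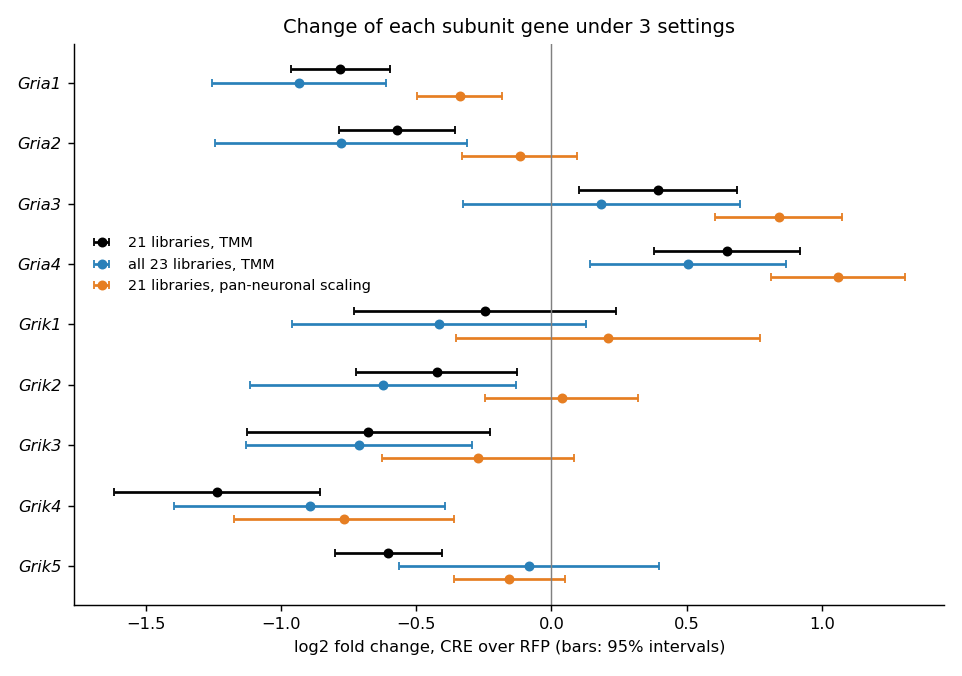
Log2 fold change of CRE over RFP (x axis) for each subunit gene (y axis) with the 21 libraries compared, with all 23, and with the 21 scaled to pan-neuronal genes. Points are estimates from edgeR and bars 95% intervals. Gria1 stays below and Gria4 above 0 in all 3, while Grik5 moves from -0.60 to -0.08 with all 23 libraries.

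A second scaling set the subunits against the summed counts of 12 pan-neuronal genes. Abundant genes weigh most in that sum. Those of highest mean in RFP libraries, Map2 (1807 CPM), Syt1 (1122) and Stmn2 (1047), were called lower by 0.53, 0.77 and 0.65, while 5 of the 12 were not called. The scaling therefore cannot tell whether a subunit changed beyond neuronal RNA as a whole. The 12 pan-neuronal genes (such as Rbfox3, Map2 and Snap25) summed to 4333 to 6954 CPM in CRE and 6313 to 8179 CPM in RFP libraries, and 6 were called lower and 1 higher. Scaling to these genes moved the median log2 fold change of all genes to 0.49, and 55.5% of genes were called higher and 4.68% lower. On that scale 2 members fell (Gria1 by 0.34 and Grik4 by 0.77) and 2 rose (Gria3 by 0.84 and Gria4 by 1.06). The changes of Gria2 (-0.12), Grik3 (-0.27) and Grik5 (-0.16) were no longer called, and Grik1 (0.21) and Grik2 (0.04) changed sign without a call. Relative to the median of all genes on the same scale, Gria1 lay at -0.82, Gria2 at -0.60, Gria3 at 0.36 and Gria4 at 0.57. Relative to that median Grik1 lay at -0.28, Grik2 at -0.45, Grik3 at -0.76, Grik4 at -1.25 and Grik5 at -0.64.

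The ratio of each member to the summed pan-neuronal counts within a library gave the same 4 calls among the 9 (two-sided permutation test, adjusted over the 9). It rests on the same sum as that scaling, so its agreement is not separate evidence. The mean log2 ratio of Gria1 was -3.64 ± 0.20 (SD, n = 10) for CRE libraries and -3.29 ± 0.094 (SD, n = 11) for RFP ones, a difference of -0.35 (permutation, adjusted p = 0.0006). The difference was 0.82 for Gria3 and 1.06 for Gria4 (permutation, adjusted p = 0.00018 for each), and -0.89 for Grik4 (permutation, adjusted p = 0.0013). The ratio of Gria2 differed by -0.11 (permutation, adjusted p = 0.478). With all 23 libraries the differences of Gria3 (0.47) and Grik4 (-0.55) no longer passed (permutation, adjusted p = 0.196 for both).

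Composition within the AMPA family was then measured as each subunit's share of the family sum of counts per kilobase of exon, which does not depend on scaling between libraries. Gria1 made up 57.0, 60.5 and 66.3% (lowest, median and highest) of the sum in CRE and 68.5, 71.2 and 77.6% in RFP libraries. Gria3 made up 9.02, 12.5 and 16.7% in CRE and 4.02, 6.66 and 8.37% in RFP libraries. Gria4 made up 7.87, 10.6 and 12.6% in CRE and 3.49, 4.93 and 6.17% in RFP libraries. The groups did not overlap for these 3 shares.

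The share of Gria1 was 11.3 percentage points lower in CRE libraries, and the shares of Gria3 and Gria4 were 5.87 and 5.71 points higher (two-sided permutation test, adjusted p = 6e-05 for each, from a raw p of 2e-05 that is the smallest the resamples can give). The share of Gria2 differed by -0.29 points, at 16.9 ± 1.71% (SD, n = 10) for CRE and 17.2 ± 2.47% (SD, n = 11) for RFP libraries (permutation, adjusted p = 0.870). Gria2 thus fell in level while its share by exon length differed by less than the spread between libraries. Over 6 alternatives for the shares its difference ran from -2.22 to -0.31 points, without a call in any.

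Gria3 and Gria4 together, a sum chosen after the values were seen and given with no test, made up 16.9 to 27.3% in CRE and 9.99 to 13.2% in RFP libraries. CRE1-3 and CRE3-3, left out above, lay at 20.1% and 19.5%, inside the CRE range, but their single shares did not all do so. Their shares of Gria1 (71.4% and 70.0%) and Gria3 (6.71% and 5.89%) lay inside the range of the RFP libraries, and their shares of Gria4 (13.4% and 13.6%) above every other library. With all 23 libraries the differences were -9.54 points for Gria1, 4.84 for Gria3 and 6.23 for Gria4 (permutation, adjusted p = 9e-05, 0.00036 and 9e-05), and the groups no longer separated for Gria1 and Gria3. With the longest transcript as the length, the same sum was 23.9 to 36.0% in CRE and 14.6 to 18.7% in RFP libraries. By that length the means in RFP libraries were 125 (Gria1) and 57.8 (Gria2) of an AMPA sum of 219 CPM per kilobase. In CRE libraries they were 72.9 and 38.9 of 163. The size of each single share thus moves with the length used. As means per culture number, 3 against 3, the differences kept their size (-11.3, 5.82 and 5.74 points for Gria1, Gria3 and Gria4), but an exact permutation test of that size cannot go below 0.1.

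**Figure D3:**
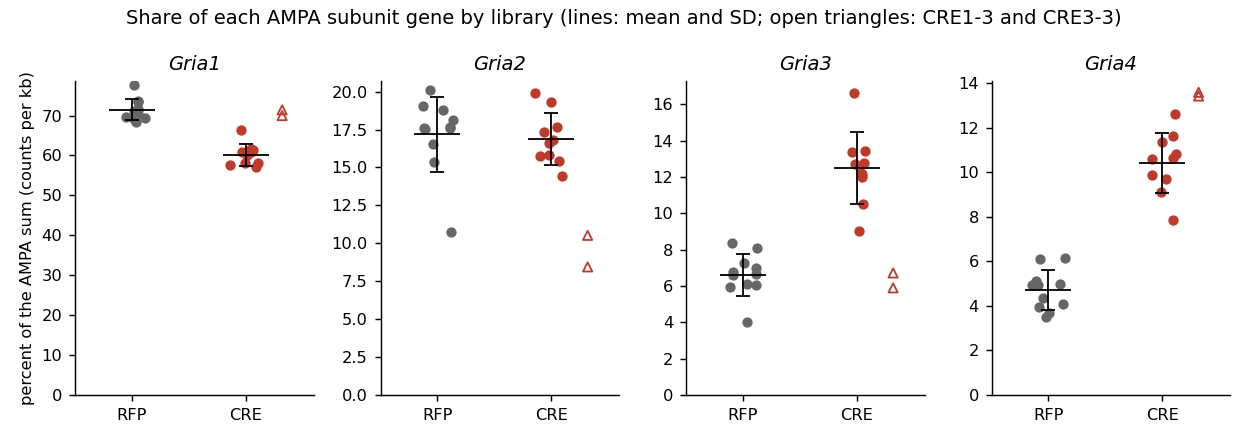
Share of each AMPA subunit gene (y axis, percent of the family sum of counts per kilobase of exon) in RFP and CRE libraries (x axis). Points are libraries, lines the mean and SD, and open triangles CRE1-3 and CRE3-3. Filled CRE points for Gria1 lie below and those for Gria3 and Gria4 above every RFP point, while Gria2 overlaps and the triangles of Gria1 and Gria3 lie in the RFP range.

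Within the kainate family a single share differed. Grik4 made up 4.67 ± 1.96% (SD, n = 10) of the kainate sum for CRE and 7.20 ± 1.31% (SD, n = 11) for RFP libraries, 2.54 points lower (permutation, adjusted p = 0.00535). Grik5 was the largest share in both groups, 47.5 ± 5.43% and 47.3 ± 4.52%, and differed by 0.24 points (permutation, adjusted p = 0.910). The family sum was 18.6 to 36.4 CPM per kilobase in CRE and 37.3 to 52.0 in RFP libraries. The AMPA sum was 57.5 to 111.1 CPM per kilobase in CRE and 112.0 to 146 in RFP libraries. In these 21 libraries neither sum overlapped between groups, and the ratio of the group means was 0.692 for AMPA and 0.669 for kainate genes. CRE1-3 and CRE3-3 held kainate sums of 46.9 and 71.8 CPM per kilobase, inside and above the RFP range, and AMPA sums of 23.9 and 37.3, below every other library. With all 23 libraries the ratio was 0.616 for AMPA and 0.791 for kainate genes. With the longest transcript as the length, the AMPA sums overlapped in part, with 6 of 10 CRE libraries below every RFP library.

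Per kilobase of exon, the order of mean levels in RFP libraries was Gria1 (94.0 CPM per kilobase), Gria2 (22.7), Grik5 (20.2), Grik3 (9.0), Gria3 (8.73), Gria4 (6.16), Grik1 (5.90), Grik2 (4.30) and Grik4 (3.04). In CRE libraries Gria1 (54.7), Gria2 (15.3) and Grik5 (13.3) came first, followed by Gria3 (11.5), Gria4 (9.64), Grik3 (5.64), Grik1 (4.96), Grik2 (3.21) and Grik4 (1.29). By these means Gria3 and Gria4 stood above Grik3 in CRE and below it in RFP libraries. For Gria3 this order in RFP holds for the means alone, as Grik3 was the higher of the 2 in only 4 of 11 RFP libraries.

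Neighbours in this order were compared within libraries by an exact paired permutation test, adjusted over the 8 pairs of each group. In RFP libraries Gria2 and Grik5 (exact permutation, adjusted p = 0.386), Grik3 and Gria3 (0.652), Gria4 and Grik1 (0.386) and Grik1 and Grik2 (0.152) did not differ beyond their spread. Gria1 was 4.2 times Gria2 and higher in 11 of 11 libraries (exact permutation, adjusted p = 0.00391). In CRE libraries the pairs that did not pass were Gria2 and Grik5 (exact permutation, adjusted p = 0.107), Grik5 and Gria3 (0.0781) and Grik3 and Grik1 (0.592). Gria4 was 1.84 times Grik3 in CRE and higher in 10 of 10 libraries (exact permutation, adjusted p = 0.00521).

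The annotated exons of some members add up to far more than any 1 transcript, 27443 against 10767 bases for Gria2, so levels between genes move with the length used. With the longest transcript Gria1 was 2.2 times Gria2 in RFP libraries, Gria2 was 1.55 times Grik5 (exact permutation, adjusted p = 0.00911), and Gria3 and Gria4 stood above Grik3 in both groups.

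Within culture numbers 8 of the 9 members had the same sign in all 3 cultures. Gria1 had log2 fold changes of -0.90, -0.76 and -0.69 in cultures 1, 2 and 3, each called. Gria2 had -0.65, -0.52 and -0.54 and Gria4 0.85, 0.69 and 0.46, both called in cultures 1 and 2 but not in culture 3 (adjusted p = 0.0605 and 0.237). Gria3 had 0.45, 0.28 and 0.43, with adjusted p-values of 0.288, 0.443 and 0.284. Grik2 had -0.77, -0.43 and -0.12 and Grik3 -0.95, -0.84 and -0.25, with no culture called for either. Grik4 had -1.44, -1.63 and -0.68, and Grik5 had -0.87, -0.69 and -0.27, where culture 3 was not called for either (adjusted p = 0.147 and 0.270). Grik1 was the member whose sign differed, at -0.68, 0.14 and -0.21, with no culture called.

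The difference between cultures was tested as an interaction in edgeR. It was called for 0 of the 9 members, beside 0.311% of all genes tested (45 of 14482). At an unadjusted p under 0.05 it held 1 member, Grik5 (p = 0.0337, adjusted p = 0.456). No other tool was run for the interaction.

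**Figure D4:**
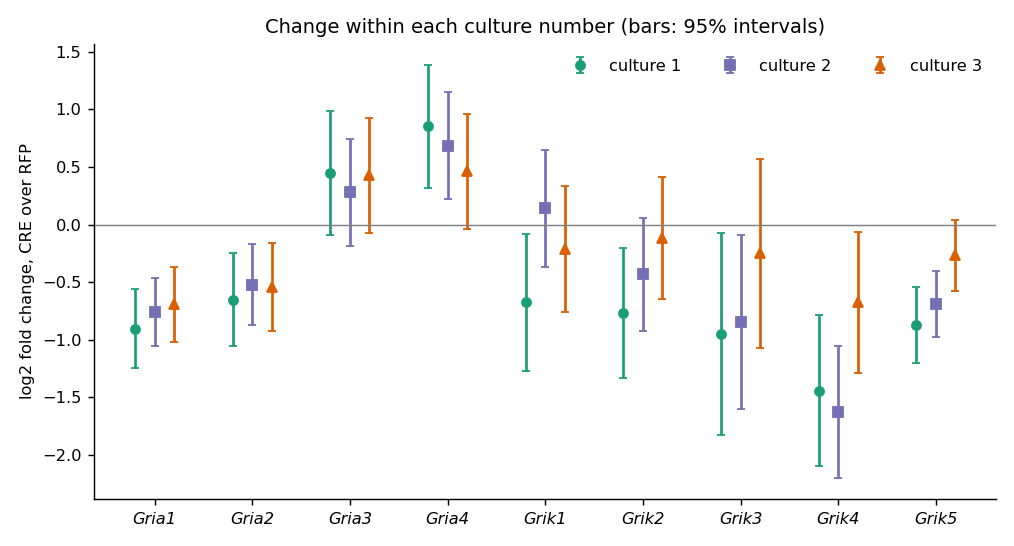
Log2 fold change of CRE over RFP (y axis) for each subunit gene (x axis) within culture numbers 1, 2 and 3. Points are estimates from one edgeR fit and bars 95% intervals. Gria1 lies below 0 and Gria4 above 0 in all 3 cultures, and Grik5 lies nearest 0 in culture 3 at -0.27.

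The AMPA receptor is held by auxiliary subunits that set its gating and surface delivery. Of 13 such genes tested, 5 were called higher and 6 lower, beside 20.2% higher and 17.8% lower over all genes, and their median log2 fold change was 0.07. The cornichon genes, which promote export from the endoplasmic reticulum and slow the channel, were lower: Cnih2 fell by 1.17 (SE 0.13, adjusted p = 3.78e-08) and Cnih3 fell by 1.52 (SE 0.20, adjusted p = 1.99e-06). Cnih3 held 13.5 to 42.9 CPM in CRE and 52.2 to 150.4 CPM in RFP libraries, with no overlap. Gsg1l, which encodes a subunit that reduces AMPA currents, fell by 1.08 (adjusted p = 0.000463).

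The TARP genes went in both directions. Cacng2, which encodes stargazin, rose by 0.66 on the log2 scale (SE 0.11, adjusted p = 2.05e-05), from 95.9 ± 17.7 CPM (SD, n = 11) in RFP to 152 ± 29.2 CPM (SD, n = 10) in CRE libraries. Cacng3 rose by 0.87 (adjusted p = 0.000235), and Cacng5, a TARP of the second type, rose by 0.94 (adjusted p = 0.000396). The other TARP genes of the list are named after their values were seen. Cacng7 rose by 0.33 (adjusted p = 0.00335), while Cacng8 and Cacng4 fell by 0.57 (adjusted p = 0.0273) and by 0.37 (adjusted p = 0.0414).

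Genes of AMPA receptor biogenesis and assembly held 4 calls among 8, all lower (17.8% over all genes), with a median log2 fold change of -0.23. Frrs1l, which escorts the assembling tetramer in the endoplasmic reticulum, fell by 0.82 (adjusted p = 3.63e-06). Porcn, which encodes a membrane protein found in AMPA receptor complexes, fell by 0.82 (adjusted p = 5.24e-06). Abhd12 and Syndig1 fell by 0.27 and 0.46. With scaling to the pan-neuronal genes 1 of the 8 was called lower and 4 higher, beside 4.68% and 55.5% over all genes.

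Of 22 genes of scaffolds and trafficking, 3 were called higher and 11 lower, beside 20.2% and 17.8% over all genes, with a median of -0.29. Dlg2, which encodes the scaffold PSD-93, held 167 to 296 CPM in CRE and 476 to 572 CPM in RFP libraries without overlap, and fell by 1.18 (SE 0.088, adjusted p = 1.77e-11). The neuronal pentraxin receptor gene Nptxr, which clusters AMPA receptors, fell by 1.14 (adjusted p = 8.27e-07). The pentraxin genes Nptx1 and Nptx2, named after their values were seen, went in opposite directions: Nptx1 fell by 1.19 and Nptx2 rose by 1.64, both called. The motor genes Kif5c and Myo5a fell by 0.56 and 0.51, and Nsf, whose product binds the Gria2 tail, by 0.47. Grip2, an anchor of Gria2 and Gria3, rose by 1.03 (adjusted p = 1.48e-05). With scaling to the pan-neuronal genes 2 of the 22 were called lower and 9 higher, beside 4.68% and 55.5% over all genes.

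Of 15 genes of kinases and phosphatases acting on AMPA receptors, 12 were called lower and 0 higher, beside 17.8% and 20.2% over all genes, with a median of -0.38. Camk2a, also counted among the glutamatergic markers, fell by 1.93 and Camk2b by 0.82, both of which encode subunits of the kinase CaMKII. The protein kinase C gene Prkca fell by 0.46, and the calcineurin genes Ppp3cb and Ppp3ca by 0.85 and 0.69. The largest of these 5 adjusted p-values was 0.000181, for Ppp3ca. Camk2d (0.30), named after its values were seen, was the 1 gene of the list above 0 at an unadjusted p under 0.05 (p = 0.0222), and DESeq2 and limma-voom also called 12 lower and 0 higher. With scaling to the pan-neuronal genes the list held 5 lower and 5 higher, beside 4.68% and 55.5% over all genes.

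For kainate receptors, 1 of 4 auxiliary and organizer genes was called: C1ql2, a synaptic organizer of mossy fiber synapses, fell by 1.97 (SE 0.32, adjusted p = 1.92e-05). Neto1 (0.12) and Neto2 (0.18), the auxiliary subunits themselves, were not called. This count of 1 in 4, and that of 1 in 3 for the editing genes, lie near the 37.9% called over all genes. Of the 3 editing genes Adarb1 rose by 0.53 (SE 0.13, adjusted p = 0.0021), from 138 ± 23.2 CPM (SD, n = 11) to 198 ± 57.0 CPM (SD, n = 10). Its product, ADAR2, edits the Q/R site printed above, which the counts cannot read.

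The NMDA receptor genes gave a comparison outside the 2 families. Of 6 NMDA receptor genes tested of 7, 4 were called lower and 1 higher, beside 17.8% and 20.2% over all genes, with a median of -0.50. Grin2b fell by 0.85 (SE 0.095, adjusted p = 3.18e-08) without overlap between groups, Grin2a fell by 0.64, Grin2c fell by 1.48 and the obligatory subunit gene Grin1 fell by 0.37, while Grin3a rose by 0.49. With scaling to the pan-neuronal genes 2 were called lower and 2 higher, beside 4.68% and 55.5% over all genes.

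**Figure D5:**
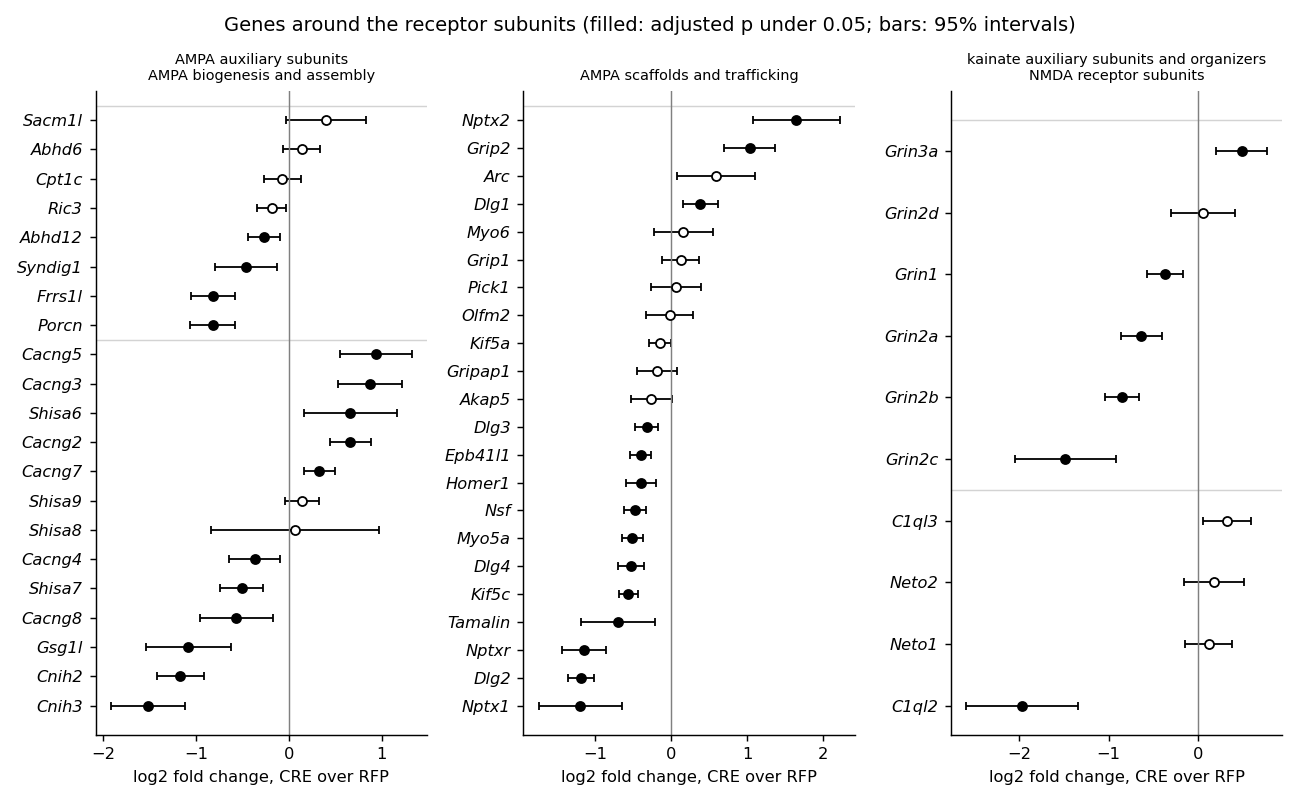
Log2 fold change of CRE over RFP (x axis) for genes around the receptors (y axis), in blocks by list, with filled points at an adjusted p under 0.05 and bars of 95% intervals. Lists run from bottom to top in the order of each panel's title. Cnih3 (-1.52) and Cnih2 (-1.17) are the lowest auxiliary subunits and Cacng5 (0.94) the highest.

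Markers of cell types were called in both directions, beside 20.2% higher and 17.8% lower over all genes. Their part in these results was not tested. The 5 glutamatergic markers summed to 699 to 1345 CPM in CRE and 1804 to 4225 CPM in RFP libraries, with Slc17a7 (-2.0), Camk2a (-1.93), Neurod6 (-1.82) and Nrgn (-0.92) lower and Slc17a6 (1.61) higher. The 10 GABA markers summed to 1003 to 1830 CPM in CRE and 1107 to 2335 CPM in RFP libraries, with 1 called higher (Pvalb, 1.96) and 3 lower (Vip, -2.14, Sst, -1.09, and Gad2, -0.30). Of 10 oligodendrocyte lineage markers 9 were tested and 6 were lower (447 to 1065 CPM in CRE and 611 to 1975 CPM in RFP libraries). The 10 astrocyte markers held 2 calls higher and 4 lower (1673 to 5368 CPM in CRE and 3112 to 8024 CPM in RFP libraries). Of 8 microglia markers 2 passed the filter, and the list summed to at most 7.70 CPM in any library compared. Of 10 endothelial and mesenchymal markers 7 passed, with 1 higher and 1 lower (15.1 to 258 CPM in CRE and 18.5 to 119 CPM in RFP libraries). No marker of any of these lists had a total of 0 counts over the 21 libraries.

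For each member the genes of most similar profile were found by the root mean square difference of log2 CPM, each gene centred on its own mean, over 21 libraries and 14350 genes. Grik5 had the closest neighbours: Dlg4, which encodes PSD-95, at 0.105, Agap3 at 0.116 and Tmcc2 at 0.117. Nearest to Gria1 were Dlgap1 (0.149), Scn2a (0.151) and Camta1 (0.154), and among the nearest to Gria2 were Hnrnpa2b1 (0.15) and Ddx5 (0.151). Gria3 lay nearest to Fgfrl1 (0.199), Tmem229a (0.225) and Cdh2 (0.226), and Gria4 to Tm7sf3 (0.254), Fnbp1l (0.256) and Acadm (0.263).

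Among kainate genes, Grik2 lay nearest to Rnf144a (0.231), Xkr4 (0.242) and Klhl13 (0.254), and Grik3 to Mgll (0.298), Gm14150 (0.309) and Smim17 (0.313). Grik4 lay nearest to 6330403K07Rik (0.359), Ptk2b (0.367) and Adam11 (0.382), and Grik1 to Etl4 (0.377), Reln (0.382) and Ints6l (0.385). No member was among the 3 nearest of another member.

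Overlaps in the annotation limit some of these counts. Exons of other genes on the same strand cover 111 bases of Gria2, 85 of Gria3, 84 of Gria4 and 59 of Grik4. Exons on the opposite strand cover 635 bases of Gria2, 395 of Gria4 and 153 of Grik5, and the strand setting of the counting is not given in the sources used here. At most 1.718% of the 50-base stretches of any member's longest transcript (that of Grik5) occur in another gene.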

How the data were processed

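The authors prepared libraries with a stranded Illumina mRNA kit. Per the labels, reads were processed with bcl2fastq 2.20.0.422, STAR 2.7.8a and featureCounts 1.5.0-p1 on GRCm39. The deposited values are unnormalized counts per gene in 23 tables, with no setting for strand or for reads of several origins given. GENCODE M39, a later annotation of the same build, named 56323 of 56941 genes (99.951% of counts).

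Counts were compared with edgeR 4.0.16 (filterByExpr, TMM, robust quasi-likelihood test, R 4.3.3), with Benjamini-Hochberg adjustment over 14482 genes. CPM used TMM factors over all 23 libraries. Shares and ratios were tested with 100000 permutations (scipy) and paired levels with exact permutation tests. Profiles used a pseudocount of 0.1 CPM. The code was tested on simulated data. Alternatives were DESeq2 1.42.0, limma-voom 3.58.1, other scalings, filters, library sets, blocks and each library or culture left out. The number before the hyphen was read as a culture, which the labels do not state in words.

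The members and the 15 gene lists were chosen with earlier results of these data known. Named genes are the members, Nedd8, up to 6 called genes of smallest p per list, and 3 nearest genes per member; some of these genes are not reported here. No pair of libraries held identical counts.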

Additional observations from a re-analysis of the deposited data

Results flagged for a closer look

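In 18 sets of CRE values (CPM and share of the 9 members, 10 libraries each) 1 value lay far from the others by Dixon's test, which flags about 1 in 20 sets by chance: the share of Gria1 in CRE3-2, 66.3% of the AMPA sum. In CRE3-2 the levels of all 4 AMPA genes (Gria1 at 312 CPM) and of Grik2 (29.1 CPM) were also the lowest of the CRE libraries compared.

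Of the kainate genes, Grik5 in both libraries left out of the comparison and Grik4 in CRE3-3 lay above every RFP library. Grik5 lay at 365 CPM in CRE1-3 and at 541 CPM in CRE3-3, against at most 272 CPM in RFP libraries. Grik4 lay at 42.3 CPM in CRE3-3, against at most 38.1 CPM, and at 28.7 CPM in CRE1-3, inside the RFP range. Grik1 (6.54 and 13.6 CPM) and Grik2 (8.31 and 11.6 CPM) lay below every RFP library in both.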

How the results depend on the processing

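The calls of Gria1, Gria4 and Grik4 kept their direction and side of the threshold under all 38 alternatives. Members called lower numbered 2 with scaling to the pan-neuronal genes, against 6; the number called higher was 1 under 8 alternatives, because Gria3 was not called: 0.19 in the 21 libraries of the study's count table, 0.18 with all 23, 0.28 with 19, 0.37 with 20 (without RFP2-4), 0.35 with limma-voom, 0.39 with no filter, 0.34 with the GC trend removed and 0.31 with counts summed per culture. Grik2 was not called with all 23 libraries (-0.62). Grik5 was not called in the study's 21 (-0.41) or all 23 (-0.082). Scaling to the pan-neuronal genes gave Gria2 -0.12, Grik3 -0.27 and Grik5 -0.16 without a call and turned Grik1 (0.21) and Grik2 (0.037). The cause of these shifts was not tested.

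With 1 library or culture left out, members called lower numbered 4 to 6 and higher 1 to 2. Gria3 ranged from 0.30 to 0.48 and lost its call without any 1 of the 3 cultures, or of CRE1-1, CRE1-4, CRE2-1, CRE2-3, CRE2-4, CRE3-1, CRE3-4, RFP2-2, RFP2-4, RFP3-1, RFP3-2, RFP3-3 and RFP3-4. Grik2 ranged from -0.63 to -0.28 and lost it without culture 1, culture 2, CRE1-2, RFP1-1 or RFP2-3, and Grik3 from -0.94 to -0.57 and lost it without culture 1 or 2.

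For shares, means per culture gave adjusted p = 0.225 (exact permutation) for Gria1 (-11.3), Gria3 (5.82), Gria4 (5.74) and Grik4 (-2.43 points), and -0.033 points for Grik5. The sign of shares without a call turned for Grik2 in the study's 21 (-0.0698) and all 23 (-0.57) and for Grik5 with the longest transcript (-0.44). Leaving out 1 library or culture gave -0.93 to 0.00238 points for Gria2, -0.78 to 1.16 for Grik5 and -2.89 to -1.98 for Grik4, whose call was lost without culture 2. Ratios to the pan-neuronal genes lost their call in the study's 21 and all 23 for Gria3 (0.54 and 0.47) and Grik4 (-0.72 and -0.55), and turned for Grik5 (0.034 and 0.23) and, with all 23, for Grik1 (-0.059).

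Of 73 genes tested in the receptor lists, 39 were called lower and 10 higher, beside 17.8% and 20.2% over all genes. With pan-neuronal scaling 14 were lower and 31 higher, beside 4.68% and 55.5% over all genes. With counts summed per culture 5 were higher, beside 11.3% over all genes. Over all genes the count of calls ran from 3727 without culture 1 to 8722 with pan-neuronal scaling and 8044 with no filter. Same culture numbers correlated at 0.115, 0.203 and 0.074 across CRE and RFP deviations, and each culture correlated best with its own number. These correlations were weak and were not tested, and the main fit used no pairing. Culture number as a replicate block gave 5657 calls and library number 5287, against 5492, and Gria1 fell by 0.78 in both. With culture number as the block the SE of Grik1 was 0.17, against 0.25, and its change of -0.21 was not called (quasi-likelihood test, adjusted p = 0.357). Depth limits Grik4 most, with 66 to 449 counts a library.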
